A study of Mus musculus with 16 samples.

Results

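Hair follicle stem cells labelled aHFSC were compared with those labelled tHFSC in mouse skin, within 6 conditions that each gave 1 array per label. The arrays were chosen by their titles, which gave 12 arrays, 6 tHFSC and 6 aHFSC, of the 16 in the series. The labels do not spell out the prefixes t and a. They give plucking of the hair coat 3 days earlier for the aHFSC of the young control and Col17a1 cKO mice, and no plucking entry for the aHFSC of the other 4 conditions. The young control and aged WT mice were C57BL/6 wild types. The Col17a1 cKO (conditional knockout) mice carried Col17a1 flox/flox and K15crePR, and the aPKC cKO mice carried aPKCλ flox/flox and K15crePR. K15crePR is a Cre recombinase driven by the Krt15 promoter and switched on by RU486, so the deletion falls in cells that use that promoter. The transgenic mice were labelled hCOL17A1 tg, and the labels name no promoter for the transgene. Young mice were 12 weeks old and aged mice 25 to 26 months. RU486 (2.5 mg per mouse for 5 days at 8 weeks of age) is given for the young control and for both knockouts, and is not mentioned for the young hCOL17A1, aged WT and aged hCOL17A1 arrays. All 12 samples were sorted by flow cytometry for high CD34, high ITGA6 and absent Sca1. The labels do not say how many mice were pooled or whether the arrays of a condition came from the same animals. No array has a replicate, so p-values measure how evenly the aHFSC minus tHFSC difference repeated over 6 different conditions, not the variation between mice.

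Hair follicles cycle between rest (telogen) and growth (anagen), and their stem cells sit in the bulge, the lowest permanent part of the resting follicle. Bulge stem cells are held quiet by BMP signals and by inhibitors of Wnt signalling, and they divide at the onset of growth, which plucking of the hair brings on. COL17A1 is the transmembrane collagen of the hemidesmosome, the junction that anchors basal keratinocytes to the basement membrane, and aPKCλ, encoded by Prkci, is a kinase of cell polarity.

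Levels below are log2 of the processed spot signal with the array's own 75th percentile subtracted. A difference is aHFSC minus tHFSC on that log2 scale, given with its standard error (SE) from the limma fit. The fit draws a gene's spread over the 6 pairs towards that of genes of like level. The SE is therefore not that of the 6 differences alone. Well above background is the scanner software's flag for a probe clearly brighter than its surroundings. Between 74.4% and 79.8% of probes carried it on 10 of the 12 arrays, against 68.8% on the aged hCOL17A1 tHFSC array and 59.1% on the aged hCOL17A1 aHFSC array. The 8 young arrays lay on slide 1 and the 4 aged ones on slide 2, so age and slide cannot be told apart, and on both slides tHFSC arrays took columns 1 and 3 and aHFSC arrays columns 2 and 4. The cell state and the slide column therefore cannot be told apart either. Col17a1 levels were 6.75 and 5.97 in the tHFSC and aHFSC of the Col17a1 cKO, against 7.02 and 6.17 in the control. Prkci, measured at 4.25 and 4.37 in the control, had its lowest levels on the aPKC cKO arrays, 3.44 and 3.28. Which part of either gene was deleted is not stated, and a probe outside it checks nothing. Of the genes that code for the sorted surface proteins, Itga6 stood between 4.03 and 4.70 on the 12 arrays. Its difference was 0.03 ± 0.12 (0.97 by another probe). Ly6a, the gene of Sca1, stood at -1.41 ± 0.39 (limma adjusted p = 0.173), with levels from -4.85 to 1.02. Cd34 is described with the bulge genes.

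Of 31092 gene rows tested, 143 were higher in aHFSC (0.46%) and 62 lower (0.199%) at an adjusted p under 0.05 (limma with condition as a block, Benjamini-Hochberg over all rows), and all 205 had the same sign in 6 of 6 pairs. The smallest adjusted p was 0.0358, so every call lay close to the threshold. The count was 0 without the control, Col17a1 cKO, young hCOL17A1 or aged WT pair, 46 without the aPKC cKO pair and 134 without the aged hCOL17A1 pair. Members named below that did not pass were picked for mention after their values were seen. The count was also 0 within slide 1, within slide 2 and when the variance was modelled without its trend on the mean level. The unadjusted p was under 0.05 for 4157 rows. With quantile normalization between the arrays the split was 109 higher and 85 lower. Each of the 77 called genes considered for naming kept its direction in each alternative in which it could be fitted. All of them had the same sign in 6 of 6 pairs, so a fit without 1 pair or within a slide could not reverse them. Without any test, 1432 rows were higher in all 6 pairs (4.61%) and 1502 lower in all 6 (4.83%). At 1 log2 unit or more in every pair, 82 were higher (0.264%) and 38 lower (0.122%), and 85 of these 120 were among the calls. Over all rows the median difference was -0.09 and 39.8% of rows had a positive difference. In these bulk samples, fewer cells of a type and less RNA per cell cannot be told apart.

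Of the 99 called higher rows with a RefSeq symbol, 17 belonged to the lists on replication, mitosis, repair, chromatin, nucleotide supply and cell cycle inhibitors, and 18 were histone genes. A further 11 lay in the other lists and 53 in no list. Of the 52 called lower rows with a symbol, 0 lay in those cell cycle lists, 15 in other lists and 37 in no list. The lists and their members were chosen with earlier results of these data known. A list's share set beside that of all rows therefore describes the list and does not test it.

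Genes of DNA replication were higher in aHFSC. Of 29 measured members of the list, 29 had a positive difference and 7 passed, against 0.46% of all rows, with a median of 1.22. Mcm6, a subunit of the ring-shaped replicative helicase, was lowest at 4.20, median 4.54 and highest at 5.01 on the tHFSC arrays, and 5.68, 6.37 and 6.50 on the aHFSC arrays. Every aHFSC array lay above every tHFSC array, and the difference was 1.61 ± 0.17 (adjusted p = 0.0358). Its partner Mcm4 went from a tHFSC median of 3.88 to an aHFSC median of 5.14 and rose by 1.22 ± 0.12 (adjusted p = 0.0358). The helicase loading factors Cdt1 (3.07 ± 0.47, adjusted p = 0.0459) and Cdc6 (2.17 ± 0.24, adjusted p = 0.0358) and the sliding clamp gene Pcna (1.14 ± 0.17, adjusted p = 0.0440) rose as well. Mcm10, which helps to start the fork, and Dscc1, which loads the clamp for sister chromatid cohesion, had large differences of 3.27 ± 0.38 and 4.02 ± 0.61, but cleared the background flag on only 2 and 1 of the 6 tHFSC arrays. With a normexp background correction they stood at 1.16 and 1.35. Members that did not pass included Mcm3 at 2.33 ± 0.41 (adjusted p = 0.0644) and Cdc45, Gins3 and Ccne1 at 0.40, 0.12 and 0.13.

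Both called genes of the chromatin list maintain DNA methylation. Uhrf1, which recognises hemimethylated DNA behind the fork, lay between 2.02 and 3.61 in tHFSC and between 4.31 and 5.80 in aHFSC, without overlap, and rose by 2.36 ± 0.23 (adjusted p = 0.0358). Dnmt1, the methyltransferase it recruits, rose by 1.45 ± 0.19 (adjusted p = 0.0390), from a median of -1.70 to -0.34. They were the called members of the 24 measured in the chromatin list (0.46% of all rows called higher), whose median was 0.24.

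Promoters of Mcm6, Dnmt1 and Uhrf1 are shown, picked from replication and methylation genes that rose. They hold an E2F-like sequence upstream of the start, with the match in capitals (TTTGGCGC or TTTCGCGC, searched on both strands). E2F factors drive genes of S phase. The stretches are from RefSeq, build GRCm38.p6, and run 5′ to 3′ on the strand of the gene.
Mcm6, chr1:128359720-128359840, minus strand: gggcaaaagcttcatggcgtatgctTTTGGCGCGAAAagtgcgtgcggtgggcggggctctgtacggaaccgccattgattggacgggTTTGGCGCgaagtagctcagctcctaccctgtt
Dnmt1, chr9:20952810-20952867, minus strand: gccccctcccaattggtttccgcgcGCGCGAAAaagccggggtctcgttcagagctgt
Uhrf1, chr17:56304103-56304160, plus strand: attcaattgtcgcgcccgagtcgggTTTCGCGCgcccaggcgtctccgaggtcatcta
In Mcm6 the run of capitals nearer the 5′ end holds both motifs, overlapping. Over the 300 bases from 250 before to 50 after the start, at least 1 of the motifs occurred in 9 of 22 DNA replication genes that matched the promoter table by symbol (40.9%) and in 11 of 78 called higher genes (14.1%). It occurred in 0 of 44 called lower genes and in 216 of 15885 measured genes (1.36%). Over all 27025 genes of the table the share was 0.93%. Of the other called replication genes, Cdt1 held TTTGGCGC in these 300 bases and is not shown, and Mcm10 and Pcna held neither motif. A match is a description of the letters, not of binding.

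Histone genes, singled out after the calls were seen, formed the largest group of a kind among the higher rows. Of 44 replication-dependent and linker histone genes found by symbol, 36 had a positive difference and 18 were called higher (against 0.46% of all rows), with a median of 1.26. H2ac23 went from a tHFSC median of 1.70 to an aHFSC median of 4.23 and rose by 2.87 ± 0.36 (adjusted p = 0.0371). H2bc14 and H2bc1 rose by 2.76 ± 0.35 and 2.71 ± 0.33 (adjusted p = 0.0371 for each), with nearly the same level on every array, so they may share signal and are uncertain as separate genes. H2ac10, H2ac12, H2ac15 and H2ac20 were also alike, rising by 1.91, 1.86, 1.96 and 1.91, so the 18 called histone genes may hold fewer separate signals. Slbp, whose protein binds the stem-loop at the end of histone mRNAs, rose by 2.73 and was also picked after its value was seen. H2az1, a variant histone used outside replication too, had among the most even differences of all calls, from 0.85 to 1.56 over the pairs, with a mean of 1.27 ± 0.11 (adjusted p = 0.0358).

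Mitotic genes had the largest median of the 40 lists, 2.18, with 30 of 30 measured members positive. Only 3 of them passed, against 0.46% of all rows. Zwilch, a part of the kinetochore complex that checks spindle attachment, lay between -3.00 and -1.05 in tHFSC and between 0.50 and 2.20 in aHFSC, and rose by 3.60 ± 0.32 (adjusted p = 0.0358). Cyclin A2, Ccna2, rose by 3.70 ± 0.51 (adjusted p = 0.0415), with aHFSC levels from -0.23 to 2.32 all above the tHFSC ones, and stood at 2.39 with normexp. Cdc20, an activator of the anaphase-promoting complex, rose by 2.71 ± 0.30 (adjusted p = 0.0358), and its levels overlapped, with the aged hCOL17A1 pair low in both states at -2.75 and -0.03 and the aPKC cKO tHFSC array high at 1.77. Birc5, Foxm1, Mki67 and Bub1 stood at 2.82, 2.69, 2.79 and 2.47 with adjusted p from 0.0526 to 0.0914, so they did not pass. Plk1 stood at 0.43 ± 0.34. With normexp the list median was 1.26. Sgo2a, a guardian of centromeric cohesion outside the list, rose by 3.22 ± 0.42 (adjusted p = 0.0390), but cleared the background flag on 3 of 6 tHFSC arrays and stood at 1.66 with normexp.

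Mitotic promoters are known for the CHR element, TTTGAA in its core, beside CCAAT boxes bound by NF-Y. The Cdc20 promoter is shown because it holds both close to the start, in capitals.
Cdc20, chr4:118437344-118437411, minus strand: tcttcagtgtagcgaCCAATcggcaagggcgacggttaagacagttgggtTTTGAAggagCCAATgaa
Searched on both strands, TTTGAA occurred in 18 of 24 mitosis genes with a promoter in the table (75%), against 16.7% of the measured genes and 20.2% of all genes in the table. CCAAT occurred in 79.2% of the mitosis genes, 63.6% of the replication genes, 62.8% of the called higher genes and 29.6% of the called lower genes, against 42.0% of the measured genes and 41.1% of all. The clock list, with a negative median, had CCAAT in 76.5% of its genes.

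Some genes of nucleotide supply and of sugar metabolism were higher in aHFSC. Of 27 genes of nucleotide, serine and one-carbon synthesis, 23 were positive (39.8% over all rows) and 3 passed (against 0.46%), with a median of 0.49. Rrm1 and Rrm2 encode the subunits of ribonucleotide reductase, which makes deoxyribonucleotides, and rose by 1.64 ± 0.19 and 1.52 ± 0.13 (adjusted p = 0.0358 for each). The 6 Rrm2 pairs ranged only from 1.31 to 1.72. Psat1, an enzyme of serine synthesis, rose by 2.02 ± 0.30 (adjusted p = 0.0440), from a median of 0.93 to 3.01. The one-carbon enzyme Mthfd2 stood at 1.93 ± 0.75 (adjusted p = 0.327) and did not pass.

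Of 22 genes of glycolysis and lactate handling, 16 were positive (39.8% over all rows), 9 of these in all 6 pairs (4.61%), and 3 passed (0.46%), with a median of 0.40. The called members were enzymes of the later, energy-yielding steps. Eno1, enolase, lay between 3.16 and 3.74 in tHFSC and between 4.31 and 5.13 in aHFSC and rose by 1.21 ± 0.16 (adjusted p = 0.0390). Pgk1 rose by 1.67 ± 0.26 (adjusted p = 0.0459) and Pgam1 by 0.96 ± 0.12 (adjusted p = 0.0371). Hk2, Pkm and Gapdh stood at 1.43, 0.84 and 0.62 and did not pass. Aldoc stood at -0.87 and lactate dehydrogenase, Ldha, at 0.16 ± 0.11. Glycolytic genes have close copies to which probes may bind, and a row for Eno1b, called at 1.18, is uncertain as a separate gene. In the respiratory chain list 23 of 26 were positive (39.8% over all rows). Its called member (0.46% over all rows) was Cox5a, a subunit of cytochrome oxidase, which rose by 0.89 ± 0.13 (adjusted p = 0.0440). In the lists of ribosome biogenesis and ribosomal proteins 17 of 21 and 22 of 24 were positive (39.8% over all rows). Their medians were 0.32 and 0.23, with 0 members called (0.46% over all rows). The aged hCOL17A1 pair had the highest medians for ribosomal proteins, 0.68 against -0.03 to 0.19 in the others, and for respiratory genes, 0.76 against 0.00 to 0.44.

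**Figure D1:**
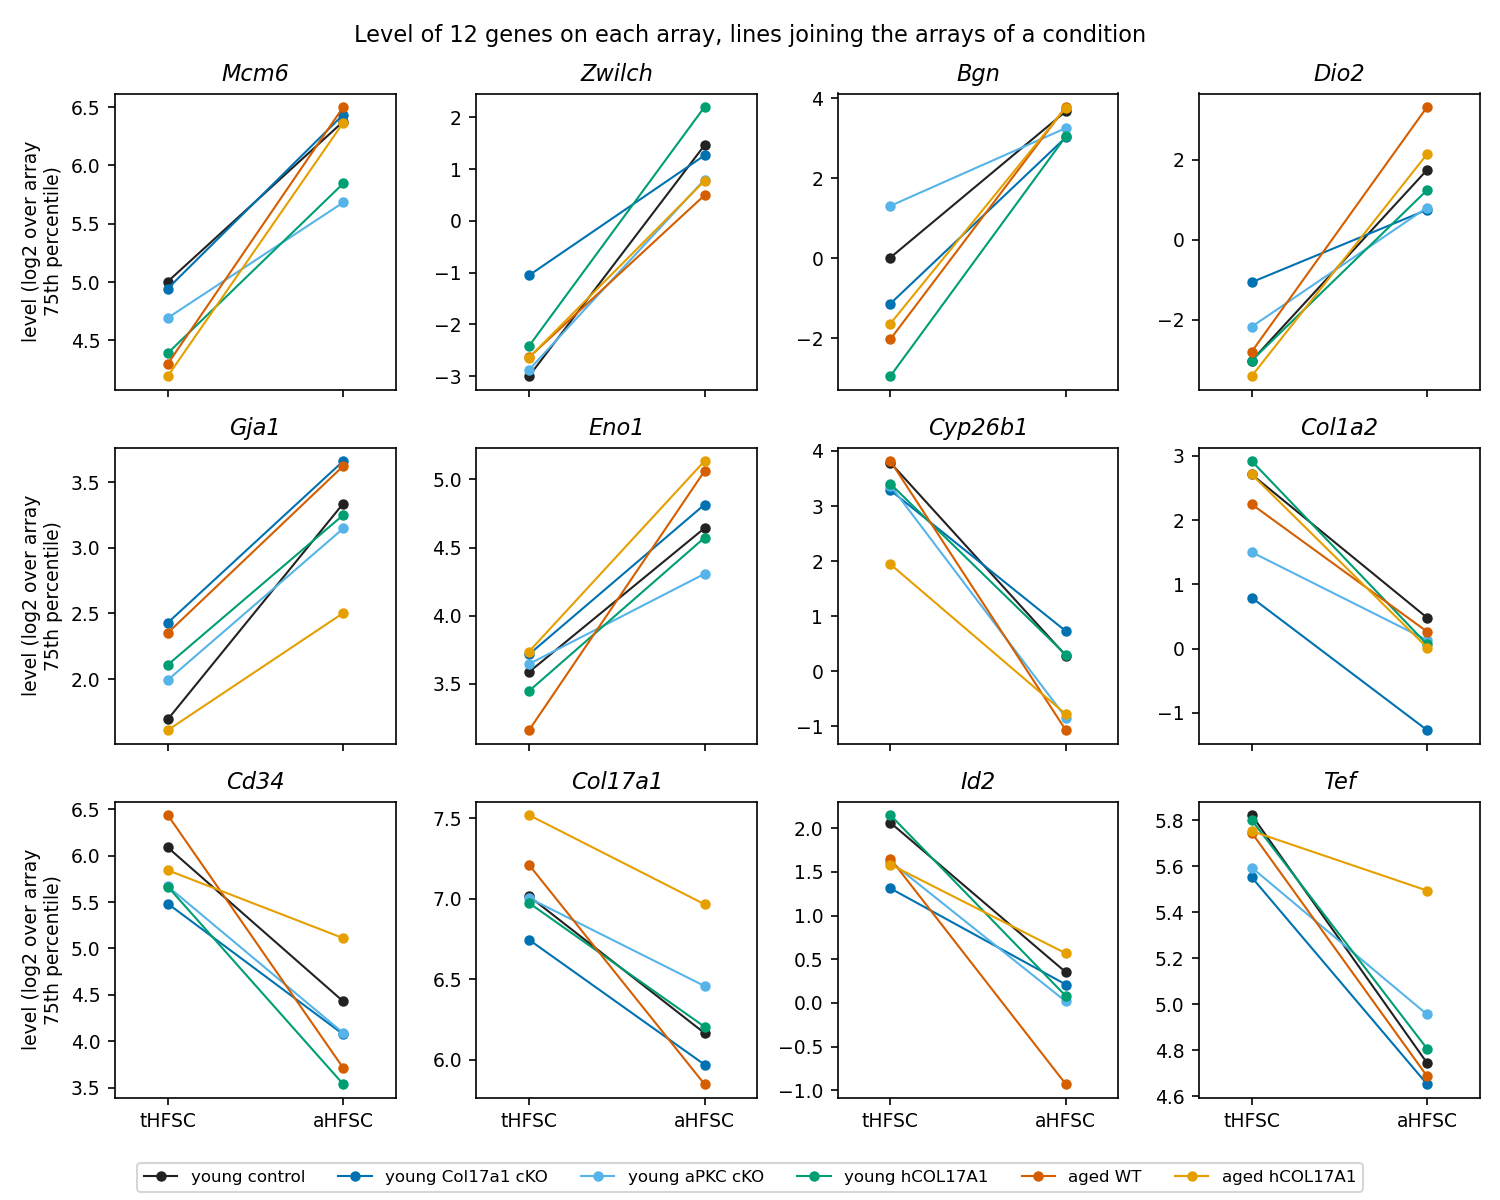
Level on each array (log2 of the signal over the array's 75th percentile, vertical axis, with a scale of its own in each panel) of 12 genes in tHFSC and aHFSC, with a line for each of the 6 conditions. All 6 lines point the same way in each panel: Mcm6, Zwilch, Bgn, Dio2, Gja1 and Eno1 go up, and Cyp26b1, Col1a2, Cd34, Col17a1, Id2 and Tef go down.

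Called matrix genes went in both directions. Of 35 measured collagen and matrix genes, 2 were called higher (0.46% over all rows) and 1 lower (0.199%). Of the 35, 13 were positive, near the 39.8% of all rows, and the median was -0.09, the same as over all rows. Bgn, the small proteoglycan biglycan, lay between -2.94 and 1.31 in tHFSC and between 3.02 and 3.78 in aHFSC, and rose by 4.49 ± 0.54 (adjusted p = 0.0363). The tHFSC levels were spread more widely than the aHFSC levels, with the aPKC cKO tHFSC array the highest. Col5a1, a chain of fibrillar collagen V, rose by 2.90 ± 0.46 (adjusted p = 0.0489), with 1.60 in the Col17a1 cKO pair and 5.09 in the aged WT pair. Within slide 2, that of the aged pairs, Col5a1 stood at 4.35. Col1a2, a chain of collagen I, fell by 2.20 (SE 0.22, adjusted p = 0.0358), and its highest aHFSC level of 0.48 lay below its lowest tHFSC level of 0.79. Col1a1, the partner chain, stood at -0.43 ± 0.85 and cleared the flag on 2 tHFSC and 3 aHFSC arrays. Col1a2 also stands in the list of fibroblast and dermal papilla markers, of which 3 of 10 measured were positive (39.8% over all rows) and only Col1a2 passed. The summed level of that list ran from 3.85 to 5.77 in tHFSC and from 4.32 to 6.17 in aHFSC, set mostly by Fbln1, and the part of such cells in the Col1a2 result was not tested.

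Col17a1 itself was lower in aHFSC. Its tHFSC levels had a median of 7.01 (6.75 to 7.52) and its aHFSC levels a median of 6.19 (5.85 to 6.97), and it fell by 0.81 (SE 0.11, adjusted p = 0.0423) with the same sign in the 2 transgenic and the 2 aged pairs. The groups overlapped only through the aged hCOL17A1 aHFSC array, which lay within the range of the tHFSC arrays. Other hemidesmosome genes had smaller negative differences that did not pass, namely Lamb3 (-0.75 ± 0.13), Itgb4 (-0.62 ± 0.14), Cd151 (-0.53 ± 0.17) and Dst (-0.42 ± 0.12), each negative in 6 of 6 pairs. Other members of that list of 25 went the other way, such as Fras1 at 3.59 ± 0.75 (above background on 1 of 6 tHFSC arrays) and Frem2 at 0.89 ± 0.15, matrix proteins of the epidermal basement membrane, and these did not pass either. Gja1, connexin 43 of the gap junction, lay between 1.61 and 2.43 in tHFSC and between 2.50 and 3.66 in aHFSC, and rose by 1.22 ± 0.14 (adjusted p = 0.0358). It was the called member of 14 gap junction genes (0.46% of all rows called higher), of which 9 were positive (39.8% over all rows). Sdc4, a heparan sulfate proteoglycan of focal adhesions, fell by 1.06 (SE 0.11, adjusted p = 0.0358), and Nedd9, an adaptor of integrin signalling, rose by 1.54 ± 0.17 (adjusted p = 0.0358). Of 31 measured genes of polarity and spindle orientation 0 passed, 10 were positive (39.8% over all rows) and the median was -0.18 (-0.09 over all rows). Prkci stood at -0.24 ± 0.12 and Prkcz, the zeta isoform, at -2.73 ± 0.58 (adjusted p = 0.0981), with the lowest level of -5.73 on the aged WT aHFSC array.

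Bulge stem cell genes were lower in aHFSC. Of 27 members 6 had a positive difference, against 39.8% of all rows, and 13 were lower in all 6 pairs, against 4.83%. Of these 4 passed, against 0.199%, and the median was -0.56. Cd34, the surface marker used in the sort, lay between 5.48 and 6.44 in tHFSC and between 3.54 and 5.11 in aHFSC, and fell by 1.70 (SE 0.24, adjusted p = 0.0423). Both states were sorted as CD34-high, so the sort bears on this value. The aged WT pair had the largest difference, -2.72, and the aged hCOL17A1 pair the smallest, -0.73. Col8a2, a short-chain collagen, fell by 2.08 (SE 0.26, adjusted p = 0.0371). Grem1, a secreted BMP antagonist, fell by 0.87 (SE 0.11, adjusted p = 0.0390), and Pdzrn4, a PDZ and RING finger protein, fell by 2.61 (SE 0.34, adjusted p = 0.0390), with -1.63 within slide 2. Fgf18, a growth factor of the resting bulge, stood at -3.29 ± 0.66 (adjusted p = 0.0870), and the Wnt antagonists Wif1 and Dkk3 at -1.30 ± 0.25 and -0.99 ± 0.18, each negative in 6 of 6 pairs without passing. The keratin Krt15 stood at -0.40 ± 0.08, and the bulge transcription factors Sox9, Lhx2, Tcf7l1 and Nfatc1 at -0.16, -0.21, -0.08 and -0.41. Lgr5, a receptor for R-spondins, stood at 0.10 ± 0.14.

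In the retinoid, thyroid hormone, Wnt, BMP and TGF-beta, and FGF and EGF lists 1 member each passed. Over all rows 0.46% were called higher and 0.199% lower. Cyp26b1, the enzyme that breaks down retinoic acid, lay between 1.94 and 3.82 in tHFSC and between -1.07 and 0.73 in aHFSC, and fell by 3.50 (SE 0.33, adjusted p = 0.0358). It was the called member of 19 retinoid genes, whose median was -0.04. Dio2, the deiodinase that makes active thyroid hormone, lay between -3.40 and -1.06 in tHFSC and between 0.75 and 3.32 in aHFSC, and rose by 4.25 ± 0.56 (adjusted p = 0.0390). The inactivating Dio3 stood at -0.09 ± 0.15 and the receptor genes Thra and Thrb at -0.52 and -1.01, none of which passed.

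Dact1, an inhibitor of Wnt signalling, fell by 3.84 (SE 0.52, adjusted p = 0.0390). Only 3 of its aHFSC arrays cleared the background flag, it stood at -1.64 with normexp, and another probe gave -0.67. Of 35 Wnt pathway genes 9 had a positive difference, against 39.8% of all rows, and the median was -0.21. In 6 of 6 pairs 3 were higher (4.61% over all rows) and 3 lower (4.83%). The pathway's factor Tcf7 stood at 1.36 ± 0.23 (adjusted p = 0.0599) and the target Axin2 at -0.29 ± 0.26. Among 33 genes of BMP and TGF-beta signalling Id2, a target of BMP signals, fell by 1.68 (SE 0.24, adjusted p = 0.0429), with aHFSC levels from -0.93 to 0.57 below tHFSC levels from 1.31 to 2.15. The related Id1 and Id3 stood at -0.76 ± 0.23 and -0.58 ± 0.31, and the ligand Bmp4 at -1.38 ± 0.43, all without passing. Fgf1 fell by 1.71 (SE 0.27, adjusted p = 0.0467) and was the called member of 34 genes of FGF and EGF receptor signalling. In the Hedgehog and Notch lists 0 of 14 and 0 of 16 passed (0.46% of all rows called higher, 0.199% lower). In 6 of 6 pairs 3 Hedgehog genes were higher (4.61% over all rows) and 2 lower (4.83%), and 1 and 2 Notch genes. Ptch1 stood at 1.52 and Cdon at -1.23, without passing. At these shares, 0 calls in lists this short do not show that a pathway was unchanged.

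Of 32 measured ion channels and transporters 1 was called lower, Kcnk2 (0.199% over all rows). Of the 32, 9 were positive (39.8% over all rows), with a median of -0.14 (-0.09 over all rows). The genes of peptides, transmitters and receptors given with it here were put together after their values were seen. Cck, the peptide cholecystokinin, lay between -1.10 and 1.11 in tHFSC and between -3.22 and -1.42 in aHFSC, and fell by 2.53 (SE 0.35, adjusted p = 0.0423). Chat, which makes acetylcholine, fell by 1.92 (SE 0.26, adjusted p = 0.0390). Adra2a, an adrenergic receptor, fell by 2.71 (SE 0.40, adjusted p = 0.0440), from a median of 3.23 to 0.95. The potassium channel Kcnk2 fell by 2.25 (SE 0.29, adjusted p = 0.0390) and the glutamate receptor subunit Grik1 by 2.25 (SE 0.32, adjusted p = 0.0429). With normexp Cck stood at -1.60, Chat at -1.26 and Grik1 at -1.47. The guidance cues Sema3c and Sema3e fell by 1.35 (SE 0.21, adjusted p = 0.0488) and 1.20 (SE 0.19, adjusted p = 0.0459). C1ql3, a secreted synaptic organiser, fell by 3.59 (SE 0.56, adjusted p = 0.0459), cleared the flag on 3 aHFSC arrays, and stood at -1.60 with normexp. Sema3c, Sema3e and C1ql3 were the called members of 43 genes of axon guidance and synaptic adhesion, against 0.199% of all rows called lower. That list, like the others, was drawn up with earlier results of these data known. Of the 43, 11 had a positive difference, against 39.8% of all rows, and the median was -0.20. Markers of Schwann cells and nerve had 3 of 7 positive (39.8% over all rows) and 0 called (0.46% higher and 0.199% lower over all rows). Prlr, the prolactin receptor gene, fell by 1.96 (SE 0.30, adjusted p = 0.0459).

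Of 20 measured clock genes 1 was called lower (0.199% over all rows). A positive difference was found in 5 of the 20, against 39.8% of all rows, 3 were lower in 6 of 6 pairs (4.83% over all rows), and the median was -0.60. Tef, a PAR bZIP transcription factor of clock output, lay between 5.55 and 5.82 in tHFSC and between 4.65 and 5.49 in aHFSC, and fell by 0.82 (SE 0.13, adjusted p = 0.0459). Its pair differences ran from -1.08 in the control to -0.26 in the aged hCOL17A1 pair. Cry2 stood at -0.94 ± 0.23 (adjusted p = 0.131), Per2 at -1.18 ± 0.51, Nr1d1 at -0.93 ± 0.42, Arntl at -1.10 ± 0.48 and Clock at -0.03 ± 0.28, none of which passed. Clock factors bind the E-box CACGTG, and the Tef promoters are shown with it in capitals; the table holds 2 starts for the gene.
Tef, upstream start, chr15:81802521-81802576, plus strand: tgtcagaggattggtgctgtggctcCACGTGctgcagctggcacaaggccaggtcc
Tef, downstream start, chr15:81811251-81811306, plus strand: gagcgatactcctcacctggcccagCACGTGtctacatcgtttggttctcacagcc
CACGTG, which reads the same on both strands, occurred in 5 of 17 clock genes with a promoter in the table (29.4%), in 7 of 44 called lower genes (15.9%) and in 7.69% of the called higher genes, against 9.65% of the measured genes and 8.09% of all.

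Wound-associated keratinocyte genes had a median of 0.74, with 15 of 20 positive (39.8% over all rows), 6 of them in all 6 pairs (4.61%), and S100a9 called (0.46%). The median was 0.26 with normexp, 0.20 over probes above background on all 12 arrays, 1.17 within slide 1 and 0.11 within slide 2, and 0.09 in the aged hCOL17A1 pair. S100a9, an alarmin of stressed keratinocytes and of neutrophils, had levels of -6.70 to -0.77 in tHFSC (median -5.70) and -1.79 to 2.72 in aHFSC (median 1.45), and rose by 5.28 ± 0.77 (adjusted p = 0.0440). Its tHFSC levels were -0.77 and -1.29 in the knockouts and lay between -6.70 and -5.36 in the other 4 conditions. It cleared the flag on 2 tHFSC arrays and stood at 2.68 with normexp. Its partner S100a8 stood at 3.46 ± 0.82, the cystatin Stfa1 at 4.43 ± 0.79, the cornified envelope gene Sprr1b at 3.73 ± 0.86 and the keratin Krt16 at 2.49 ± 0.54, each positive in 6 of 6 pairs without passing. Krt6a stood at -0.34 ± 0.47. Of 9 neutrophil markers 3 were positive (39.8% over all rows) and 0 passed. Their summed levels ran from 7.09 to 7.85 in tHFSC and from 7.21 to 7.59 in aHFSC. That sum is almost wholly Csf3r, with means of 7.42 and 7.45, and the other 8 markers had means below -2, so it says little about neutrophils. The defining markers Ly6g and Retnlg cleared the flag on 2 tHFSC arrays each and on 3 and 0 aHFSC arrays. Of 15 markers of myeloid and Langerhans cells 8 were positive (39.8% over all rows) and 0 passed. Their summed levels ran from 8.29 to 8.60 in tHFSC and from 8.14 to 8.45 in aHFSC. That sum too is set mostly by 1 gene, Itgam, with means of 8.25 and 8.14, so it says little about such cells. Of 9 suprabasal epidermis markers 8 were positive (39.8% over all rows) and 0 passed. Their summed levels ran from 5.14 to 9.04 in tHFSC and from 6.31 to 9.60 in aHFSC. The part of these cells in the wound gene values was not tested. In the remaining marker lists (T cells, melanocytes, endothelial, muscle, sebaceous, interfollicular basal, hair lineage, Merkel and blood cells) 0 members passed. With 0.46% of all rows called higher and 0.199% lower, 0 calls in marker lists this short say little about such cells. Among these markers Cd3g, Mitf and Tek were lower in 6 of 6 pairs, at -1.48, -0.94 and -0.94. Krt14, Krt18 and Tagln were higher in 6 of 6 pairs, at 0.54, 0.36 and 0.30. Of 23 chemokine and inflammatory genes 6 had a positive difference (39.8% over all rows) and 0 passed, with a median of -0.39 and Cxcl14 at -1.59 ± 0.39.

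Further called genes came from lists with a single called member or from none. Foxi3, a forkhead factor of ectodermal appendages, rose by 2.37 ± 0.22 (adjusted p = 0.0358), with differences from 1.96 to 2.33 in 5 pairs and 3.38 in the control. Slc7a2, a transporter of cationic amino acids, rose by 3.19 ± 0.36 (adjusted p = 0.0358) and Car12, a carbonic anhydrase of the cell surface, by 2.50 ± 0.35 (adjusted p = 0.0425). Gadd45a, a growth arrest and DNA damage gene, rose by 2.51 ± 0.39 (adjusted p = 0.0459), and Cdkn2c, a cyclin-dependent kinase inhibitor of the INK4 family, by 1.64 ± 0.25 (adjusted p = 0.0459). Krt80, an epithelial keratin, lay between 4.64 and 5.58 in tHFSC and between 2.08 and 3.95 in aHFSC, and fell by 2.08 (SE 0.32, adjusted p = 0.0459). S100a4, a calcium-binding protein, fell from a median of 6.28 to 4.06 (SE of the difference 0.23, adjusted p = 0.0358), and Maf, a bZIP transcription factor, by 1.07 (SE 0.12, adjusted p = 0.0358). The dual oxidase maturation factor Duoxa2 fell by 2.56 (SE 0.32, adjusted p = 0.0371), above background on 2 aHFSC arrays and at -0.91 with normexp, and its oxidase Duox1, picked after its value was seen, fell by 1.48. The lowest difference of all called genes considered for naming was that of Phyhipl, which fell by 4.29 (SE 0.57, adjusted p = 0.0390), cleared the flag on 2 aHFSC arrays, and stood at -1.53 with normexp. Cpsf4l, on the higher side, rose by 4.67 ± 0.56 (adjusted p = 0.0371), cleared the flag on 2 tHFSC arrays, and stood at 1.71 with normexp and -0.11 by another probe.

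**Figure D2:**
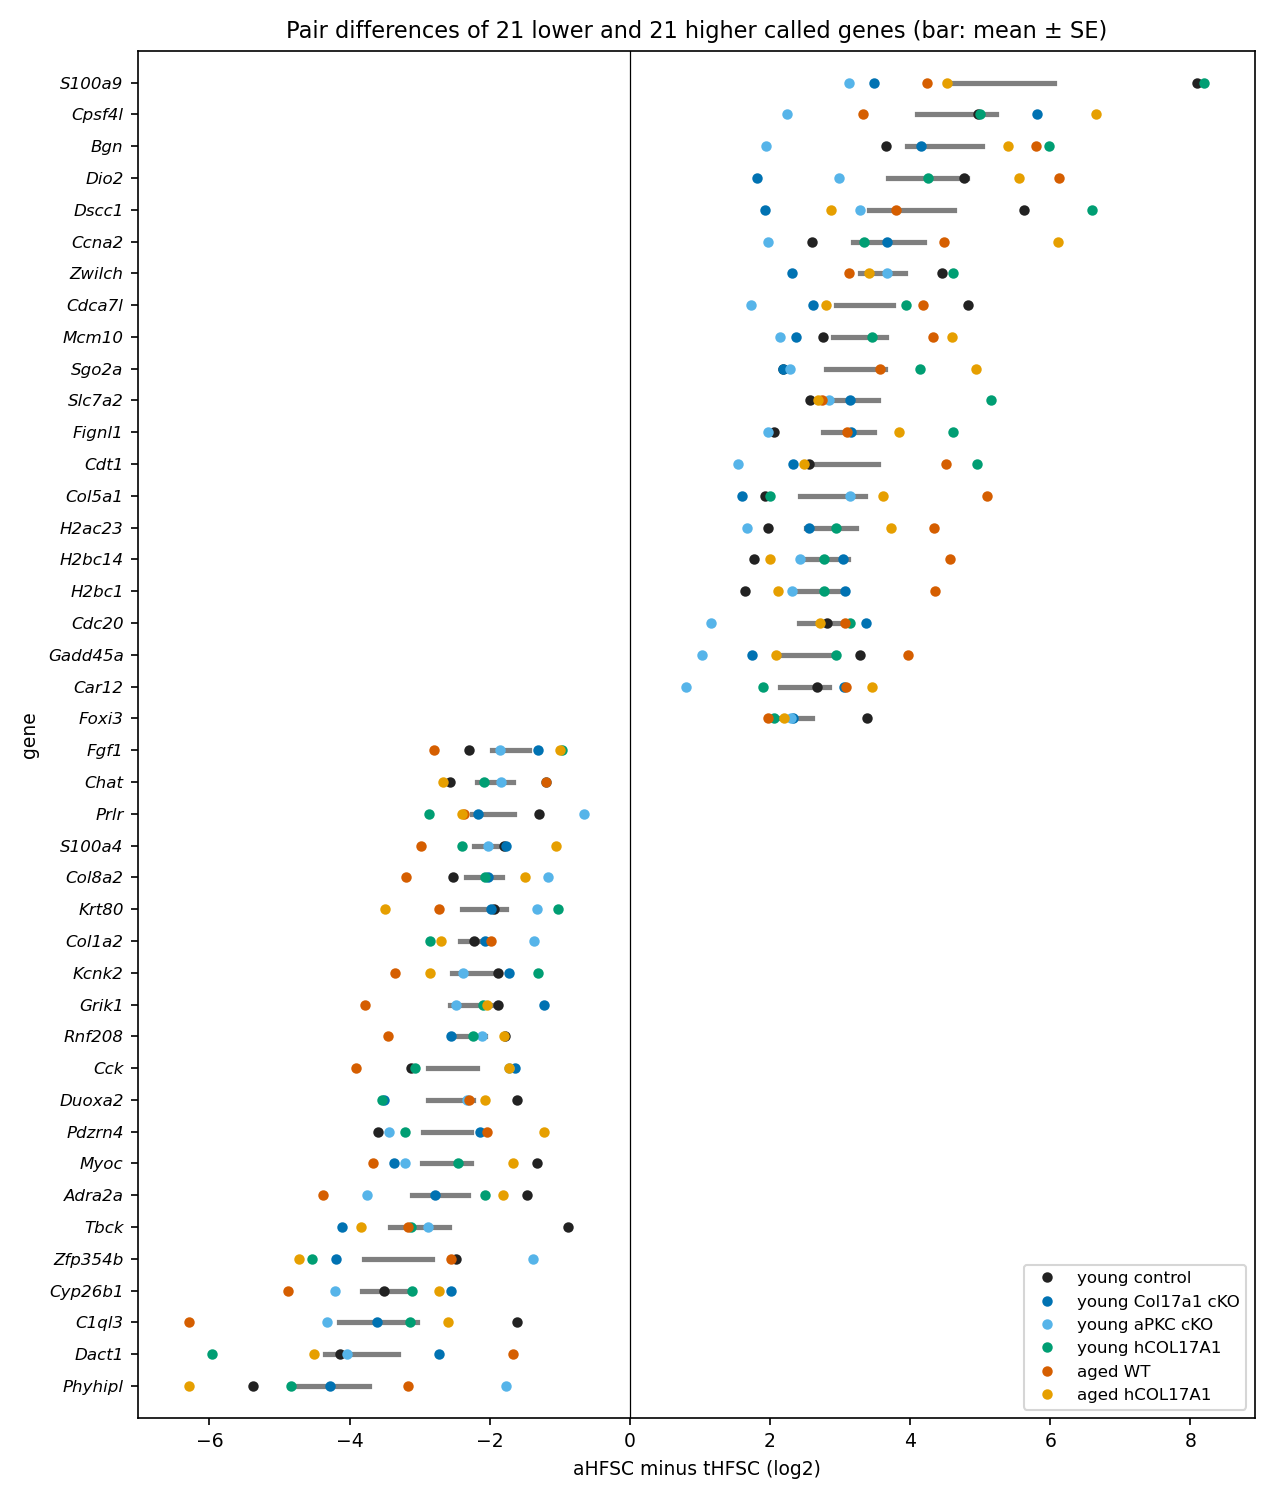
aHFSC minus tHFSC (log2, horizontal axis) of 21 lower and 21 higher called genes, taken from the largest differences among the genes considered for naming, with a dot for each condition and a grey bar from 1 SE below to 1 SE above the mean. All dots of a gene lie on the same side of 0, and the aPKC cKO dots of many higher genes lie nearest to 0, such as 1.16 for Cdc20 and 1.94 for Bgn.

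The strength of the response was read condition by condition with genes chosen in the other 5. For each condition, 100 higher and 100 lower genes with the smallest p in a fit of the other 5 pairs were taken and their difference was read in the pair left out. The genes came from 11284 with a symbol and well above background on all 12 arrays, of which 46.4% to 49.5% had a positive difference in the pairs. The aged WT pair responded most: 98 of its 100 higher genes were positive with a median of 1.95, and 93 of its 100 lower genes negative with a median of -1.39. In the young control pair 96 and 88 kept the direction, with medians of 1.49 and -1.11, and in the Col17a1 cKO pair 90 and 90, with 1.43 and -0.88. In the young hCOL17A1 pair 92 and 90 did, with 1.17 and -1.02. The aPKC cKO pair kept the direction as often, in 90 and 89 genes, but with the smallest median for the higher genes, 0.80, and -0.74 for the lower ones. In the aged hCOL17A1 pair 88 of the higher genes were positive with a median of 1.20, but only 68 of the lower genes were negative, with a median of -0.42. With 1 pair for each condition none of these differences can be tested. Whether a smaller difference came from the tHFSC or the aHFSC level was not tested. The labels give plucking for the control and Col17a1 cKO aHFSC alone, and its part in the ranking was not tested.

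The aged hCOL17A1 pair also had the widest spread of differences. The range between the quartiles of its differences over the 11284 genes was 1.36, against 0.77 to 0.92 in the other 5 pairs, and 33.1% of genes differed by 1 log2 unit or more, against 16.9% to 24.3%. It holds the 2 arrays with the fewest probes well above background, and the part of that in its weaker lower response was not tested. With 1 array per state, noise and a wider response cannot be told apart. The differences of distinct pairs correlated weakly across these genes. Pearson's r ran from 0.02 (aPKC cKO and aged hCOL17A1) to 0.30 (Col17a1 cKO and aged WT). Genes are not independent replicates, and tHFSC and aHFSC arrays alternate in the same slide columns in all pairs.

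**Figure D3:**
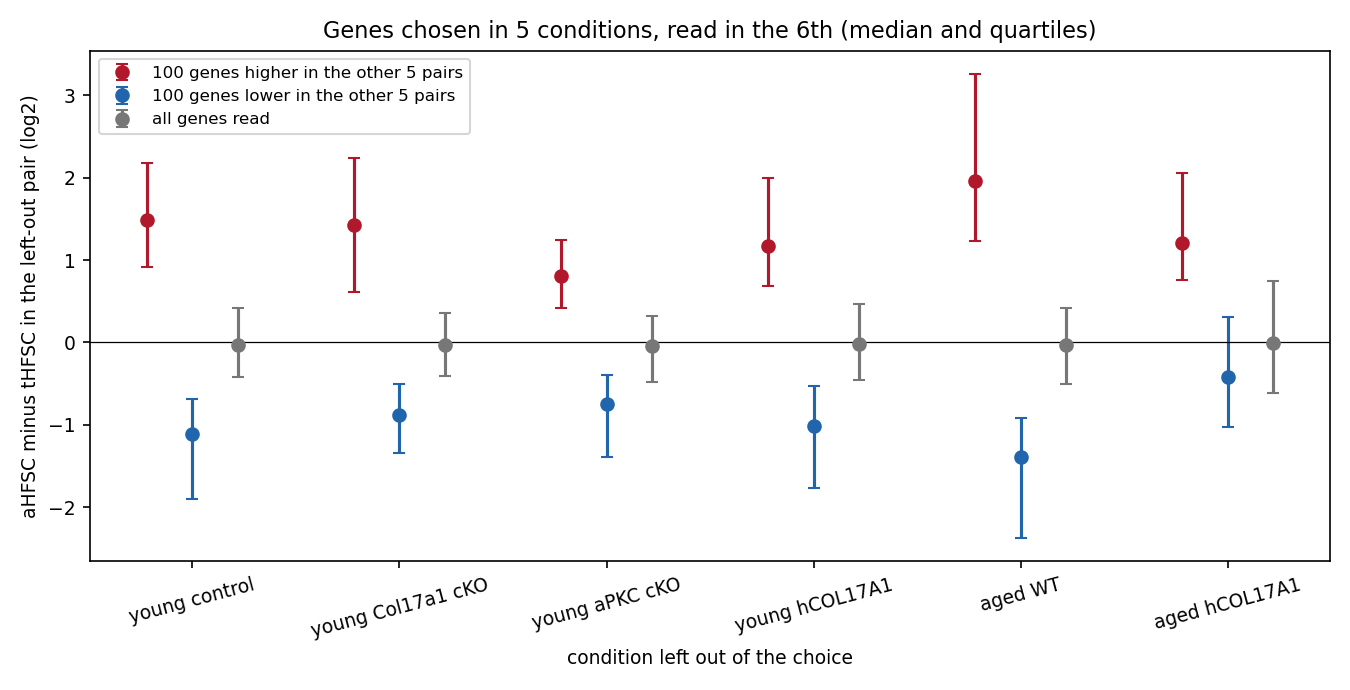
Difference in each left-out pair (log2, vertical axis) of the 100 higher and 100 lower genes chosen in the other 5 conditions and of all 11284 genes read, as median with lower and upper quartile, by condition. The higher genes have medians between 0.80 (aPKC cKO) and 1.95 (aged WT), and the lower genes from -1.39 in aged WT to -0.42 in aged hCOL17A1.

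List medians also varied by condition. For mitosis the median was lowest in the aPKC cKO, 1.05, and highest in aged WT, 3.10, with 1.86 in aged hCOL17A1, 2.30 in young hCOL17A1, 2.43 in the control and 2.54 in the Col17a1 cKO. For replication the same conditions held the lowest and highest medians, 0.66 and 1.81. The nucleotide list stood at 0.06 in the aPKC cKO and -0.10 in aged hCOL17A1, against 0.61 to 0.90 in the other 4. Bulge stem cell genes had a negative median in every condition, from -0.70 in the control to -0.28 in the Col17a1 cKO, and the aPKC cKO at -0.36. The clock list stood at -0.07 in the aPKC cKO and -0.81 in the control. Epidermal differentiation genes had no common direction: their median was -1.01 in the Col17a1 cKO and 1.19 in the aPKC cKO, and from -0.52 to 0.48 in the other 4. Immediate early genes, which cell stress also switches on, stood at 1.11 and 1.37 in the aged pairs and between -0.75 and 0.61 in the young ones. Interferon and antigen presentation genes stood at 0.99 in the aged hCOL17A1 pair and at -0.80 in the aPKC cKO.

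**Figure D4:**
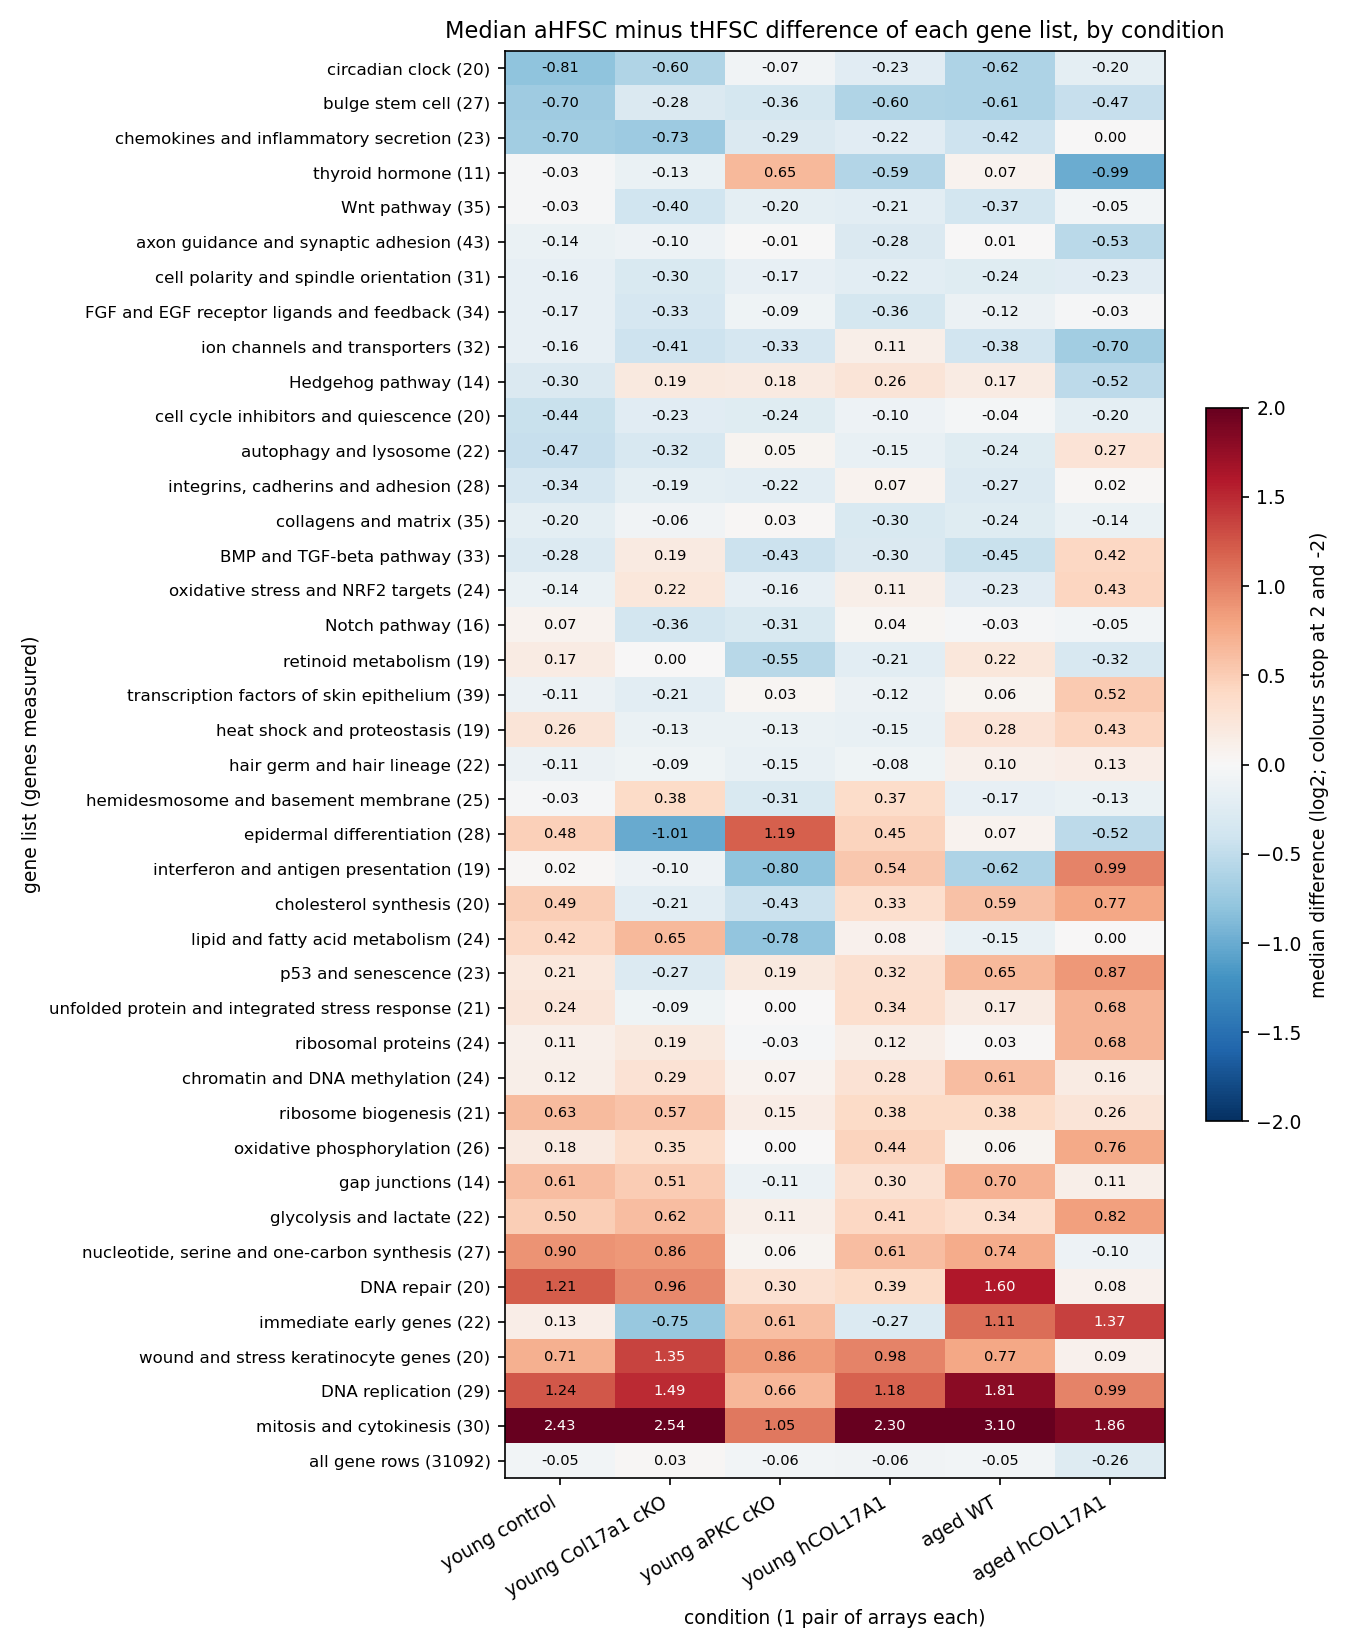
Median aHFSC minus tHFSC difference (log2, colour and printed value) of each of 40 gene lists (rows, with the number of genes measured) in each condition (columns, 1 pair of arrays each), with all 31092 gene rows at the bottom. Mitosis (1.05 to 3.10), replication (0.66 to 1.81) and bulge stem cell genes (-0.70 to -0.28) keep their sign in all 6 conditions, while epidermal differentiation runs from -1.01 to 1.19.

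Whether the aHFSC minus tHFSC difference itself varied between kinds of mice was tested gene by gene with limma interaction terms. No gene passed for aged against young pairs (0% of 31092 rows, smallest adjusted p = 0.504), for transgenic against other pairs (0%, smallest adjusted p = 0.359) or for knockout against other pairs (0%, smallest adjusted p = 0.836). The unadjusted p was under 0.05 for 1904, 2875 and 1202 rows. With 2 pairs against 4, a count of 0 does not show that the responses were alike. Among the smallest p-values, Sox4, a transcription factor of progenitor cells, had differences of 5.21 and 5.87 in the aged pairs against 1.74 to 2.67 in the young ones (interaction 3.21 ± 0.38, adjusted p = 0.716). Wnt4 had 2.28 and 3.23 in the transgenic pairs and -1.21 to -0.52 in the others (3.61 ± 0.41, adjusted p = 0.359). The receptor gene Notch3 had -1.48 and -0.84 in the knockout pairs and 1.06 to 2.56 in the others (-2.98 ± 0.52, adjusted p = 0.998).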

How the data were processed

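Sorted cells were profiled on one-colour Agilent arrays after RNA amplification (Ovation Pico WTA V2) and Cy3 labelling, per the labels' protocols. The authors deposited each array's scanner output with processed intensities, and a value table of log2 values that matched log2 of those intensities minus each array's 75th percentile. Control and outlier spots were left out, log2 was taken, spots of a probe were averaged and the 75th percentile subtracted. The young control tHFSC file lacked 9264 probes, filled from the deposited log2 table without background flags. The filter kept 48988 of 55681 probes, those that cleared the background flag on 2 or more HFSC arrays, and each gene took its probe of highest mean. Names came from a RefSeq table. The number of arrays limits the precision.

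Differences were tested with limma 3.58.1 in R 4.3.3 (lmFit and eBayes with a trend, two-sided, condition as block, 5 residual degrees of freedom; 4 for interactions), checked on simulated data. Named genes came from a rule over size, p, list membership and evenness among genes of the same sign in 6 of 6 pairs. The members and lists were chosen with earlier results of these data known. Alternatives changed the background, scaling, filter, probes, arrays, block, variance model and pairs. Some genes are not reported here.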

Additional observations from a re-analysis of the deposited data

Results flagged for a closer look

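In 6 of 81 genes, 1 pair lay far from the other 5 by Dixon's test, which chance alone flags in about 1 of 20 groups. The aHFSC minus tHFSC difference of Cdc20 was 1.16 in the aPKC cKO, against 2.71 to 3.37 in the other pairs. Col17a1 stood at -1.36 in aged WT, against -0.85 to -0.55. Foxi3 stood at 3.38 in the control, against 1.96 to 2.33, and Gnl1 at -0.62 in the control, against -1.16 to -1.04. Prkcz stood at -5.85 in aged WT, against -2.84 to -1.05, and Slc7a2 at 5.15 in young hCOL17A1, against 2.57 to 3.14. In 2 of 40 lists the aged hCOL17A1 median stood apart: 0.68 for ribosomal proteins, against -0.03 to 0.19, and 0.52 for transcription factors of skin epithelium, against -0.21 to 0.06. The aged hCOL17A1 aHFSC array had 59.1% of probes well above background, against 74.5% to 79.8% on the other aHFSC arrays.

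In 3 of 40 lists the medians had opposite signs in the pairs with and without a factor, and the difference was not tested. Cholesterol synthesis genes stood at -0.43 and -0.21 in the knockout pairs and at 0.33 to 0.77 in the others, a difference of means of -0.87. Hair germ and hair lineage genes stood at 0.10 and 0.13 in the aged pairs and at -0.15 to -0.08 in the young ones, a difference of 0.22. Integrins, cadherins and other adhesion genes stood at 0.02 and 0.07 in the transgenic pairs and at -0.34 to -0.19 in the others, a difference of 0.30.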

How the results depend on the processing

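Over 21 alternatives the count of 205 genes called for aHFSC minus tHFSC stayed within 1.5 times, with the following exceptions. It was 311 without the condition block, 362 with slide as the block, and 0 with eBayes without a trend. It was 0 within slide 1, 0 within slide 2, and 0 to 134 when 1 pair was left out. Fits within a slide or without 1 pair hold fewer arrays, and the cause of these changes was not tested. All 77 called named genes kept their sign wherever they could be fitted. Without 1 pair or within a slide this follows from their same sign in 6 of 6 pairs. The sign of 26 of 40 list medians held under every alternative. Itga6, near 0, turned to -0.092 with quantile normalization and -0.15 within slide 2, and ran from -0.037 to 0.079 without 1 pair. With normexp the medians were 1.26 for mitosis and 0.26 for wound genes. Polarity stood at -0.24 with quantile normalization, -0.12 with arrays centred on their median, -0.094 within slide 2 and -0.26 to -0.12 without 1 pair. With probes above background on all 12 arrays DNA repair stood at 1.24, hair germ at 0.18 and wound genes at 0.20. With the mean of a gene's probes chromatin stood at 0.46 and collagens and matrix at -0.23. With probes held in all 12 scanner files cell cycle inhibitors stood at -0.27, DNA repair at 1.22 and gap junctions at 0.80. Within slide 1 hair germ stood at -0.17 and wound genes at 1.17. Within slide 2 cell cycle inhibitors stood at 0.038, collagens and matrix at -0.27, heat shock at 0.28, immediate early genes at 1.55, transcription factors at 0.30 and wound genes at 0.11. Without 1 pair collagens and matrix ran from -0.31 to -0.067. The aged WT response of the higher genes had a median of 2.91 when fewer genes were chosen (50 in each direction) and 1.45 when more were. The size of the largest differences is uncertain where probes lay near background. With normexp Phyhipl stood at -1.53 instead of -4.29 and Cpsf4l at 1.71 instead of 4.67.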
